A study of Mus musculus with 11 samples.

Results

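Neural stem cell, progenitor, proliferation and neuroblast genes were examined in astrocytes sorted from 4 regions of the adult mouse brain. The set held 9 genes, Fabp7, Nes, Prom1, Egfr, Sox4, Sox11, Dcx, Mki67 and Top2a, out of 24421 genes in the files. They were listed by function, and Fabp7 was in part chosen by its high normalised value in the olfactory bulb samples. Fabp7 is therefore described without a test wherever the olfactory bulb enters a comparison, and tests refer to the other 8 genes. All 9 were among the 13875 genes with enough reads to be tested.

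The samples were 3 from the olfactory bulb (OB), 3 from the hippocampus (HC), 2 from the cortex (CX) and 3 from the brainstem (BS) of 16-week-old mice on a C57BL/6 background. Every mouse carried the Aldh1l1-eGFP reporter, a bacterial artificial chromosome in which regulatory sequence of the astrocyte gene Aldh1l1 drives a green fluorescent protein, and eGFP-positive cells were collected by fluorescence activated cell sorting (FACS). Both sexes were used in the study, and no source gives the sex of a sample or says that replicates came from separate animals, so that the p-values measure only the spread between these samples, which may be technical. A cell that is not an astrocyte but drives the reporter would also pass this gate, and adult neural stem cells, which are astrocyte-like, are known to be labelled by such reporters.

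In the adult rodent brain, neural stem cells are a kind of astrocyte that keeps features of the radial glia of the embryo. Those in the wall of the lateral ventricle divide, pass through a rapidly dividing progenitor stage and give neuroblasts that migrate into the OB and become interneurons. Those in the dentate gyrus of the HC give granule neurons in place, whereas the CX and BS are not regarded as sites where many neurons are added in adult life.

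Astrocyte markers were abundant in every library, and choroid plexus markers in some. The summed normalised value of 9 astrocyte markers ranged from 96317.5 to 633958 across the 11 samples, led by the glutamate transporter Slc1a2 and the glycolytic enzyme Aldoc, and 0 of the 9 were at 0 in all samples of a region. The sum of 10 markers of the choroid plexus, the epithelium that secretes cerebrospinal fluid, was 221.8 to 310.3 for OB, 72353 to 146799 for HC, 1783 to 5061 for CX and 52396 to 247366 for BS, and in BS 1 it exceeded the astrocyte sum of that sample. The part of such cells in the values below was not tested. Each sample held between 2830746 and 14151670 reads on genes, with a median of 5552215. The normalised value is the read count of a gene divided by the size factor of its sample, so that 1 read was worth between 0.367 and 2.10, and a floor of 3 reads lay between 1.10 and 6.31. The ribosomal precursor Rn45s took 0.966 to 2.93% of reads in OB and HC samples and 18 to 25.6% in CX and BS samples, and scaling to the total reads of each sample in place of size factors moved the median gene of a region against the others by 0.23 in OB, 0.22 in HC, -0.37 in CX and -0.17 in BS (log2).

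Transcripts of 2 of the genes, Fabp7 and Dcx, stood far above the other regions in OB, and sequence at the starts of these 2 genes is shown first. Promoter windows of RefSeq (GRCm38.p6), from 250 bases before to 50 after each start, were matched for all 9 genes, with 11 windows for the 9. They were searched on both strands for TGGGAA, the core bound by the Notch effector Rbpj, for CCAAT, and for TAATTA, a core shared by homeodomain factors such as those of the Dlx family. The 208 bases upstream of Fabp7 (chr10:57784673-57784880, plus strand), with matches to TGGGAA or CCAAT in capitals in either orientation, and 30 bases of Dcx around its TAATTA match (chrX:143933241-143933270, minus strand), in capitals, read as follows.
Fabp7: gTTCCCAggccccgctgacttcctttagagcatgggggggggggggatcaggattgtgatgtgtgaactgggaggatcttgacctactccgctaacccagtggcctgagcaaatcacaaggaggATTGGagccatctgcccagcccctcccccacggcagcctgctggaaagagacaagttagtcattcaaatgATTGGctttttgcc
Dcx: aaaaaaagcatgTAATTAatcataggaggt

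In Fabp7 a single TGGGAA match, in the opposite orientation, lay 249 bases before the RefSeq start at 57784923, and CCAAT matches lay 126 and 56 bases before it. This start lies inside the GENCODE gene, whose first base follows the printed stretch. TGGGAA occurred in 3 of the 11 windows (of Fabp7, Prom1 and Sox4), against 25.6% of 32851 windows of the genome. The Dcx match to TAATTA lay 39 bases before one annotated start and 134 before another, and Dcx was the 1 gene of the set that held it. This same site lay in 2 of the 11 windows, both of Dcx, against 5.29% of all windows. CCAAT was present in 8 of the 11 windows, from 7 of the 9 genes, against 37.4% of all windows. These matches are descriptions of the sequence, not of bound sites.

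Fabp7 (chromosome 10, 57784881 to 57788450, plus strand) encodes brain lipid binding protein, a fatty acid carrier of radial glia, of some astrocytes and of olfactory ensheathing glia. Its normalised value was 16510.1, 12292 and 14279 in the 3 OB samples. It was 888, 1039 and 1077 in HC, 1084 and 1282 in CX, and 381, 1089.8 and 625 in BS. The lowest OB sample was thus 9.59 times the highest sample of any other region. The OB mean of 14360.2 ± 2110.4 (SD, n = 3) was 15.4 times the mean of the other 8 samples, and 14.3, 12.1 and 20.6 times the means of the HC, CX and BS, values that are given as a description. Between 0.256 and 0.338% of all reads in OB samples fell on Fabp7. Outside the OB the gene remained well covered, with 297 to 2936 reads per sample.

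Among the other regions, the order of Fabp7 was CX, HC and BS, at 1183 ± 139.7 (SD, n = 2), 1001 ± 100.2 (SD, n = 3) and 699 ± 360.3 (SD, n = 3). None of these neighbours differed beyond the spread between samples, in pairwise contrasts that called 1.23% (HC and CX), 4.63% (HC and BS) and 10.9% (CX and BS) of all genes. With limma on log2(value + 1), the difference was 0.24 between CX and HC (adjusted p = 0.827), 0.64 between HC and BS (adjusted p = 0.264) and 0.89 between CX and BS (adjusted p = 0.0866). Since whole sorted populations were sequenced, a larger number of cells with a transcript and more transcript per cell cannot be told apart, here and in what follows.

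**Figure D1:**
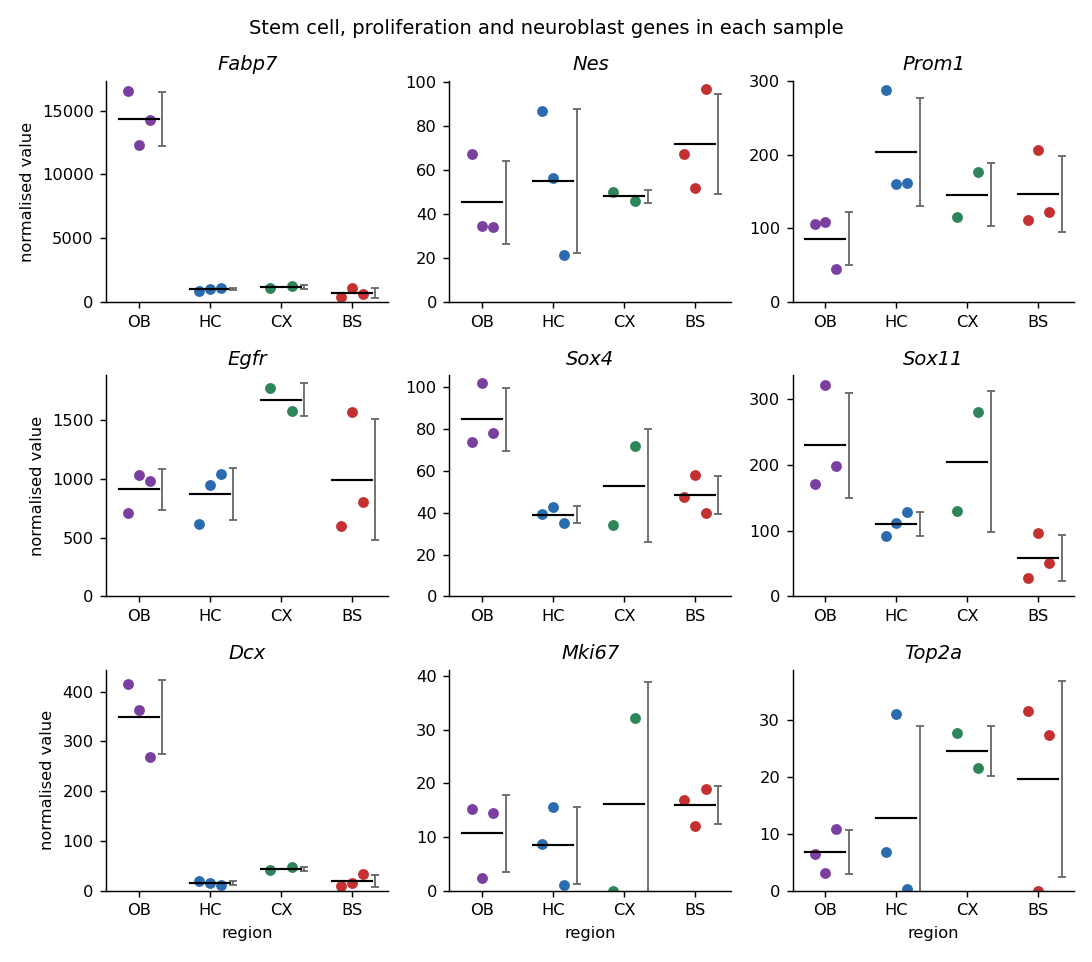
Normalised value (read count divided by the size factor of the sample) of each of the 9 genes in each of 11 samples, by region. Points are samples, horizontal lines are means and vertical bars are 1 SD, cut at 0. The 3 OB samples lie above all others for Fabp7, Dcx and, narrowly, Sox4, while Mki67 and Top2a stay at 32.2 or below in all regions.

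Dcx (chromosome X, 143855842 to 143933311, minus strand) encodes doublecortin, a microtubule-associated protein of migrating neuroblasts and immature neurons. Its value was 415, 363 and 268 in OB, against 18.7, 15.5 and 12.1 in HC. It was 41.5 and 47.5 in CX and 9.46, 16.0 and 33.7 in BS. The OB samples did not overlap the others, the lowest being 5.64 times the highest sample elsewhere. The OB mean of 349 ± 74.3 (SD, n = 3) was 14.3 times the mean of the other 8 samples, 24.3 ± 14.5 (SD, n = 8). On the log2 scale Dcx was 3.97 higher in OB than in the other regions pooled (SE 0.47; limma, adjusted p = 0.000282). It rested on 382, 460 and 498 reads in OB samples and on 8 to 33 reads in each of the others.

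The neurogenic hippocampus did not share this level. Dcx had its lowest mean in HC, 15.5 ± 3.32 (SD, n = 3), and the OB exceeded the HC by 4.41 (SE 0.45, adjusted p = 1.8e-05), the CX by 2.92 (SE 0.50, adjusted p = 0.00290) and the BS by 4.23 (SE 0.45, adjusted p = 1.4e-05), on the log2 scale with limma. These pairwise contrasts called 7.11%, 4.91% and 15% of all genes, and they share the OB samples. The CX mean of 44.5 ± 4.29 (SD, n = 2) was 2.88 times the HC mean, but the difference did not pass the adjusted test (HC minus CX -1.48, SE 0.50, adjusted p = 0.210). HC and BS differed by -0.18 (SE 0.45, adjusted p = 0.907).

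Of the 8 genes tested, Dcx was the 1 called in OB against the other regions by limma at an adjusted p under 0.05, a contrast in which 4.58% of all 13875 genes were called, 2.57% as higher. With the study's thresholds Prom1 and Sox4 were called as well, against 8.04% of all genes. Here and below these thresholds were applied to unadjusted limma p-values, whereas the study used DESeq2. At an unadjusted p under 0.05, 4 of the 8 passed, namely Dcx, Prom1, Sox11 and Sox4, as did 2436 of all 13875 genes. The median gene of the whole table differed by 0.02 (log2) in this contrast.

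**Figure D2:**
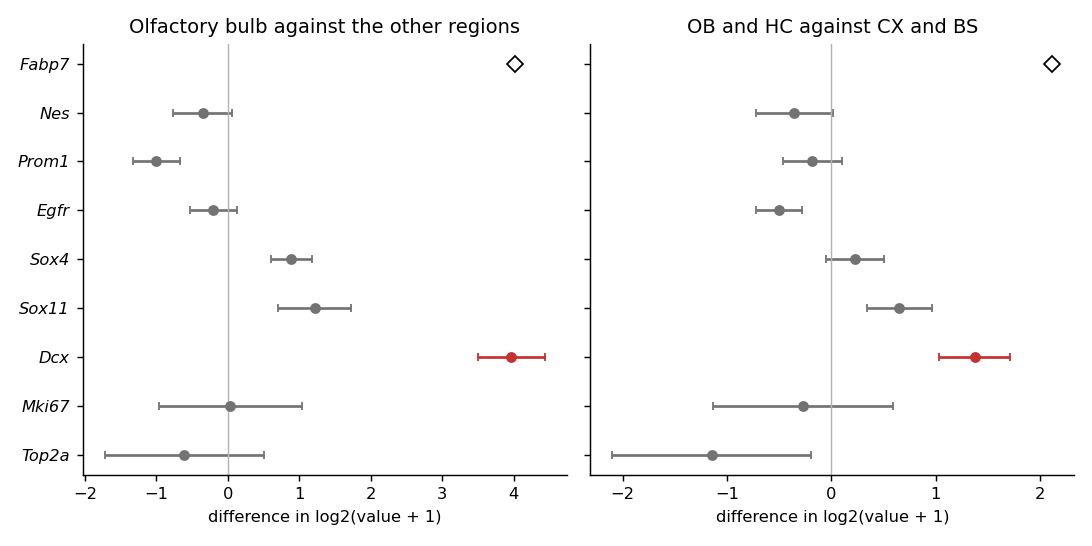
Difference in log2(value + 1) for each gene between the OB and the other regions (left) and between OB with HC and CX with BS (right). Points are limma estimates and bars are 1 standard error; red marks an adjusted p under 0.05, and open diamonds mark Fabp7, which was not tested. Dcx, at 3.97 and 1.37, is the red point in both panels.

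The SoxC transcription factors Sox4 and Sox11 are expressed in neuronal progenitors and newly formed neurons, where they promote the neuronal programme. Sox4 (chromosome 13, 28948919 to 28953713, minus strand) had values of 73.8, 102 and 78.1 in OB and 39.4, 42.9 and 34.9 in HC. It was 33.9 and 72.1 in CX and 47.3, 58.1 and 40.0 in BS. All OB samples exceeded all others, though the lowest of them, 73.8, lay close to the second CX sample at 72.1, and 4.93% of all genes were higher without overlap in OB. The OB mean of 84.6 ± 15.1 (SD, n = 3) was 1.84 times that of the other samples, 46.1 ± 13.0 (SD, n = 8). The log2 difference of 0.89 (SE 0.29) did not pass the test with limma (adjusted p = 0.111), whereas DESeq2 on the recovered reads called it (adjusted p = 0.0335). Over all alternatives the adjusted p ranged from 0.0335 to 0.401.

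Sox11 (chromosome 12, 27334264 to 27342574, minus strand) was measured at 170.5, 321 and 198 in OB and at 91.2, 112 and 128 in HC. Its values were 129 and 281 in CX and 27.3, 96.2 and 50.5 in BS. The BS was low and the OB and the second CX sample were high, with OB and CX samples overlapping. Sox11 fell by 1.66 (log2, SE 0.41) in BS against the other regions (limma, adjusted p = 0.0318), the 1 call among the 8 genes in a contrast that called 5.42% of all genes, 3.42% as lower. The OB exceeded the BS by 2.09 (SE 0.42, adjusted p = 0.00296) and the CX exceeded it by 1.88 (SE 0.46, adjusted p = 0.0169), while the OB exceeded the CX by 0.21 (SE 0.46, adjusted p = 0.888). In the OB against all others the difference was 1.22 (SE 0.51, adjusted p = 0.2265).

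The call of Sox11 in BS was lost when BS 1 (adjusted p = 0.203), BS 3 (0.119), CX 2 (0.0538) or OB 3 (0.0521) was left out, and with edgeR (0.0653). Over all alternatives its adjusted p ranged from 0.00412 to 0.203. The BS sample with the highest Sox11, BS 2, also had the highest sum of the 9 astrocyte markers in that region, 284061 against 96317.5 in BS 1 and 164825 in BS 3. Fabp7, Egfr, Prom1 and Sox4 were highest in the same BS sample. The part of the astrocyte share of each sample in these values was not tested.

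Nes and Prom1 represent the stem cell and radial glia end of the set. Nes (chromosome 3, 87971078 to 87980451, plus strand) encodes nestin, an intermediate filament protein of neural stem cells that is also made by endothelial and reactive cells. It was low in all regions, at 67.3, 34.7 and 33.9 in OB, 86.8, 56.6 and 21.3 in HC, 50.3 and 46.0 in CX, and 67.3, 52.1 and 96.8 in BS. The regions overlapped throughout, with no value apart from the rest. The OB differed from the others by -0.35 (log2, SE 0.41, adjusted p = 0.731) and OB with HC from CX with BS by -0.35 (SE 0.37, adjusted p = 0.730), both with limma. The summed value of 12 endothelial and pericyte markers overlapped between all regions, between 818.6 and 4273.

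Prom1 (chromosome 5, 43993620 to 44102032, minus strand) encodes prominin-1 (CD133), a membrane glycoprotein of neural stem cells and of ependymal cells. Its values were 105, 108 and 44.2 in OB, 288, 161 and 161 in HC, 116 and 176 in CX, and 111, 206 and 122 in BS. It ran opposite to Dcx, being lowest in OB, where the highest sample, 108, lay just under the lowest of the other samples, 111, as did 3.24% of all genes. The OB mean of 85.9 ± 36.2 (SD, n = 3) compared with 168 ± 58.7 (SD, n = 8) elsewhere. The log2 difference of -0.997 (SE 0.33) did not pass the test (limma, adjusted p = 0.112), nor did the difference of -1.29 between OB and HC (SE 0.38, adjusted p = 0.0524). Without OB 3, the sample at 44.2, the difference shrank to -0.58.

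Ependymal markers did not follow the order of Prom1. The sum of 10 such markers, of which Foxj1 and Mlf1 were the most abundant, ranged from 81.4 to 143.7 in OB, 198.2 to 344.5 in HC, 36.4 to 95.1 in CX and 244.4 to 892.6 in BS, so that it was lowest in CX. Between 0 and 2 of the 10 were at 0 in all samples of a region. Their part in the Prom1 values was not tested.

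Egfr (chromosome 11, 16752203 to 16918158, plus strand) encodes the receptor of epidermal growth factor and marks activated stem cells and rapidly dividing progenitors, and it is also present in mature astrocytes. It was measured at 712, 1035 and 986 in OB, 619.6, 946 and 1039 in HC, 1773 and 1578 in CX, and 598, 1573 and 806 in BS. The CX was highest, its lower sample at 1578 lying just above BS 2 at 1573, and 5.02% of all genes were higher without overlap in CX. The CX mean of 1675 ± 138 (SD, n = 2) was 1.81 times the mean of the other 9 samples, 924 ± 297 (SD, n = 9). The log2 difference of 0.92 (SE 0.29) did not pass with limma (adjusted p = 0.342), in a contrast in which 0 of the 8 genes and 0.0144% of all genes were called. Egfr was the 1 of the 8 genes with an unadjusted p under 0.05 there, by limma, edgeR and DESeq2 alike, a threshold that 1372 of all 13875 genes passed with limma, and edgeR and DESeq2 called 0 of the 8. The study's thresholds, applied to limma p-values, called it, against 2.77% of all genes. OB and HC differed by 0.08 (SE 0.29, adjusted p = 0.938).

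Per kilobase of exon sequence, Egfr was the second most abundant gene of the set. The mean value per kilobase was 83.2 in OB, 79.3 in HC, 153 in CX and 90.6 in BS, against 11488, 801, 946 and 559 for Fabp7. Dcx stood at 37.7 per kilobase in OB and between 1.67 and 4.81 elsewhere. Mki67, at 0.841 to 1.60, and Top2a, at 1.31 to 4.70, were the least abundant in OB, while in HC and BS Dcx was below Top2a.

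The proliferation genes Mki67 and Top2a had few reads, between 0 and 34 in a sample. Mki67 (chromosome 7, 135689784 to 135716361, minus strand) encodes the Ki-67 protein, which coats the chromosomes of dividing cells. It had 14, 3 and 27 reads in OB, 14, 17 and 3 in HC, 0 and 21 in CX, and 16, 6 and 9 in BS. As normalised values these were 15.2, 2.37 and 14.5 in OB, 8.75, 15.5 and 1.10 in HC, 0 and 32.2 in CX, and 16.8, 12 and 18.9 in BS. For the count of 0 in CX 1, the floor of 3 reads was worth 3.77 and the exact 95% Poisson interval reached 4.63, while the other CX sample held the highest value of all.

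Top2a (chromosome 11, 98992943 to 99024189, minus strand) encodes DNA topoisomerase II alpha, which untangles chromosomes in cells that prepare to divide. Its reads numbered 6, 4 and 20 in OB, 11, 34 and 1 in HC, 22 and 14 in CX, and 30, 0 and 13 in BS. The values were 6.52, 3.16 and 10.8 in OB, 6.87, 31.1 and 0.367 in HC, 27.6 and 21.5 in CX, and 31.5, 0 and 27.4 in BS. Samples of the same region differed more than the regions did, from 0.367 to 31.1 within the HC alone. For the count of 0 in BS 2, the floor was worth 6.01 and the exact interval reached 7.39.

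Neither gene passed the test between the OB and the other regions with limma, at 0.04 for Mki67 (SE 1.00, adjusted p = 0.991) and -0.61 for Top2a (SE 1.11, adjusted p = 0.842). The sign of the Mki67 difference turned with edgeR and DESeq2. The sample with the most reads, HC 3, held 3 reads of Mki67 and 1 of Top2a.

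**Figure D3:**
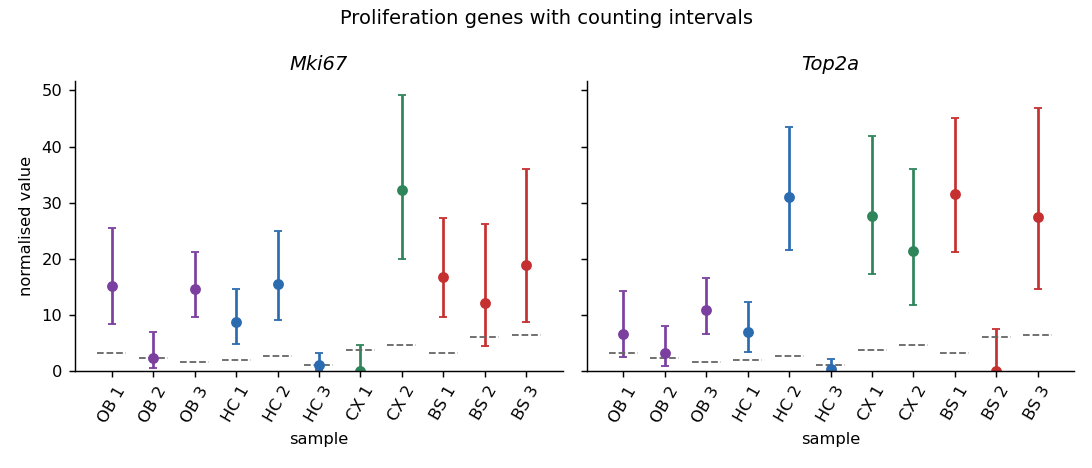
Normalised value of Mki67 and Top2a in each sample with the exact 95% Poisson interval of its read count, which covers counting error only. Dashes mark the worth of 3 reads in each sample. The intervals of samples from 1 region, such as HC 2 and HC 3 for Top2a, lie apart, and CX 1 for Mki67 and BS 2 for Top2a are at 0.

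Of 15 S phase genes 11 could be tested, and limma called 0 of them in OB, with 1 at an unadjusted p under 0.05 and 0 called by edgeR or DESeq2. Of 25 G2 and M phase genes only 8 could be tested, with 0 called by all 3 tools in OB and 1 at an unadjusted p under 0.05 with limma. Pcna, the sliding clamp of DNA polymerase, was the most abundant at 178 ± 25.4 (SD, n = 3) in OB and 217 as the mean of the other samples, and Rrm1, a subunit of ribonucleotide reductase, stood at 106 and 149. Nuf2, a kinetochore protein, led the G2 and M list at 20.5 ± 17.3 (SD, n = 3) in OB and 40.4 elsewhere, and Cenpe, a kinetochore motor, was at 19.4 and 12.6. The summed value of the G2 and M list overlapped between all regions, from 85.3 to 195.5, and 21 of its 25 genes were at 0 in at least 1 sample. The S phase sum was 521.2 to 540.8 in OB, below the 592.9 to 867.2 of the other samples. The median difference in OB was -0.28 (log2) for the S phase and -0.22 for the G2 and M list, against 0.02 for all genes.

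The study's design also allowed the OB and HC, which receive or make neurons, to be set against the CX and BS. The same grouping divided the samples by Rn45s, at 0.966 to 2.93% of reads in OB and HC and 18 to 25.6% in CX and BS. Neurogenic status and this library difference cannot be told apart in this contrast. Dcx was again the 1 of 8 genes called (1.37, SE 0.34; limma, adjusted p = 0.0377), in a contrast that called 3.11% of all genes, 1.79% as higher. Over all alternatives its adjusted p ranged from 0.000737 to 0.649. This value averages an OB that was far above, and an HC that was at or below, the CX and BS, and leaving out single samples ended the call for 8 of the 11, with adjusted p up to 0.163 without CX 1. Egfr differed by -0.50 (SE 0.22, adjusted p = 0.299), Sox11 by 0.65 (SE 0.31, adjusted p = 0.353) and Sox4 by 0.23 (SE 0.28, adjusted p = 0.789). For Fabp7 the difference was 2.12, as a description. The HC on its own against the other regions gave 0 calls among the 8 genes and 0 among all 13875 with limma (0%), with 0 of the 8 and 789 of all genes at an unadjusted p under 0.05. edgeR called 0 genes as well and DESeq2 called 94, with 0 of the 8 among them.

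Over all 4 regions together, the moderated F test of limma called Dcx (adjusted p = 1.8e-05) and Sox11 (adjusted p = 0.00895), 2 of the 8 genes, against 16.5% of all genes. By exact permutation of each gene's values between a region and the remaining samples, two-sided, 5 of 32 tests of the 8 genes reached p under 0.05, and 0 of 32 did so after adjustment over the 32. By this exact permutation test they were Dcx, Sox4 and Prom1 in OB (p = 0.0121 each, the smallest that 3 against 8 samples can give, adjusted p = 0.129), Sox11 in BS (p = 0.0242, adjusted p = 0.194) and Egfr in CX (p = 0.0364, adjusted p = 0.233). With values scaled to total reads, Prom1 in OB and Egfr in CX were no longer among them, and Prom1 in HC and Sox11 in OB were.

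Beyond the set itself, several genes of the neuroblast stage were higher in OB. In a list of 25 neuroblast and immature neuron genes, 22 were tested. Against 2.57% of all genes called higher in OB, limma called 7 of the 22 higher and 1 lower. The median difference of the 22 was 1.18 (log2). The homeodomain and zinc finger factors of OB interneurons were among the higher ones. Sp8 was at 264 ± 18.9 (SD, n = 3) in OB and 1.48 as the mean of the other samples (7.12, SE 0.71, adjusted p = 7.4e-05), Dlx1 at 37.6 ± 9.95 and 3.23 (adjusted p = 0.0253), Dlx5 at 28.8 ± 20.4 and 0.754 (adjusted p = 0.00893), and Dlx2 at 22.5 ± 21.2 and 1.19 (adjusted p = 0.0357). Robo2, Dpysl3 and Calb2 were the other higher ones, and Prox1, a factor of dentate granule neurons and other cells, was the lower one, at 19.9 ± 11.2 (SD, n = 3) against 163. The other 14 were not called in OB by limma and went both ways. Among them were Sp9 at 3.10, Meis2 at 1.22, Tubb3 at 0.89, Stmn1 at 0.22, Cd24a at 0.18, Nrep at -0.19, Stmn2 at -0.81 and Neurod2 at -2.84 (log2). Neurod2 was at a mean of 1.17 in OB and 21.6 elsewhere, and DESeq2 called both Neurod2 and Sp9. Nrep and Stmn2 were called higher in BS by limma. Leaving out a single OB sample reduced the 8 calls to 3 without OB 1 or OB 2 and 4 without OB 3, always with Sp8, Robo2 and Prox1 among them.

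Of 15 activated and transit-amplifying progenitor genes 8 were tested, and Eomes, a factor of intermediate progenitors and of OB projection neurons, was the 1 called in OB, at 23.2 ± 9.43 (SD, n = 3). It was at 0 in all HC and CX samples and up to 8.42 in BS (3.87, SE 0.86; limma, adjusted p = 0.0191), and the call was lost without any 1 of the 3 OB samples, whereas DESeq2 called 3 of the 8 (Dll1, E2f1 and Eomes). The mean of Dll1 was higher in OB than elsewhere (16.4 against 2.75), and that of E2f1 was lower (2.35 against 19.1). Of 20 stem cell and radial glia genes, all tested, 2 were higher in OB and 0 were lower, where 2.57% of all genes were called higher. The 2 were the intermediate filament gene Vim at 1171 ± 144 (SD, n = 3) against 369 (1.77, SE 0.32; limma, adjusted p = 0.00478) and the BMP target Id3. Id3 was lost without any 1 of the OB samples and without the trend, leaving 1 call. The median difference of the 20 genes was 0.31 (log2).

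The comparison of OB and HC with CX and BS gave a different split of these lists. This grouping is also the split of the samples by their share of Rn45s reads, and the 2 cannot be told apart. Of the 20 stem cell and radial glia genes, 7 were higher in OB and HC and 0 lower, with a median difference of 0.57 against 0.01 for all genes. Limma called 1.79% of all genes higher in this contrast. Gfap, the astrocyte intermediate filament that adult stem cells share, was at 3506 ± 458 (SD, n = 3) in OB and 3673 ± 303 (SD, n = 3) in HC, against 1099 ± 297 (SD, n = 2) in CX and 1455 ± 311 (SD, n = 3) in BS (1.52, SE 0.15; limma, adjusted p = 4.05e-05). Vim rose as well (1.35, SE 0.23, adjusted p = 0.00445). Nr2e1, the nuclear receptor Tlx of neural stem cells, and Tnc, an extracellular matrix protein, were also called, but their samples were as high in CX, at 973 ± 123 and 116 ± 22.8 (SD, n = 2), as in OB and HC, and low in BS alone, at 3.86 ± 3.38 and 12.2 ± 13.2 (SD, n = 3). The same held in part for the other 3, since the CX mean was above both OB and HC for Id4 (947 against 599 and 816), above HC for Pax6 (221 against 186) and above OB for Hopx (1216 against 1059). The means of Gfap and Vim in OB and in HC were both above those of CX and BS. The 7 calls fell to 2 without the mean-variance trend (Gfap and Nr2e1), to 1 with pooled pairs of regions (Gfap), to 3, Gfap, Nr2e1 and Vim, when either CX sample was left out, and to 4 without OB 3 or without HC 2. Of the neuroblast list 4 were higher and 1 was lower in this contrast (2 in all without CX 1 and 0 with pooled pairs of regions), and 0 of the 8 transit-amplifying, 11 S phase and 8 G2 and M phase genes were called by limma, with 2, 0 and 1 at an unadjusted p under 0.05 and 0 called by edgeR or DESeq2.

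**Figure D4:**
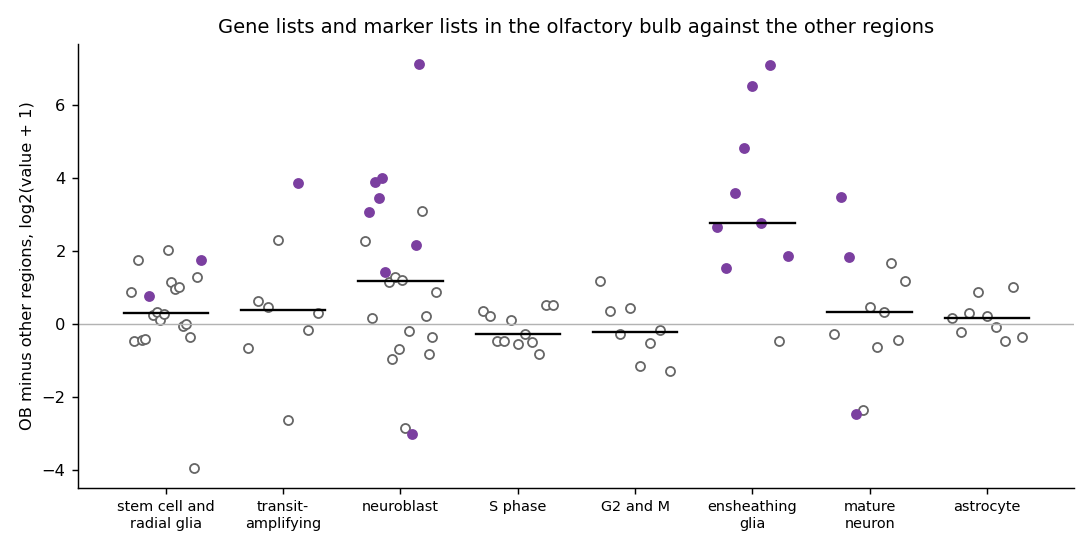
Difference in log2(value + 1) between the OB and the other regions for the tested genes of 5 gene lists and 3 marker lists. Filled points passed an adjusted p under 0.05 with limma and horizontal lines are list medians. The neuroblast list (median 1.18) and the ensheathing glia markers hold most filled points, and the S phase and G2 and M lists hold none.

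Markers of other cells moved with Fabp7 and Dcx in OB, where limma called 2.57% of all genes higher. Of 8 reported markers of olfactory ensheathing and neural crest glia, cells of the OB surface that are known to contain Fabp7, 8 were higher in OB with limma. Their sum, over a list shortened after the values were seen, was 6671 to 8376 in OB, 704.8 to 1207 in HC, 952 to 961 in CX and 1412 to 4181 in BS. Apod, the most abundant of them, was at 4585 ± 744 (SD, n = 3) in OB and 1101 elsewhere. At most 1 of the 8 was at 0 in all samples of a region, and 0 of them in OB. With the marker that is not reported added to the sum, the mean was higher in BS than in OB. The part of these cells in the Fabp7 value was not tested.

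Neuronal transcripts were mixed in OB against the other regions, a contrast that called 4.58% of all genes, 2.57% as higher. Of 11 mature neuron markers 2, Gad1 and Gad2, which make GABA, were higher in OB and Nefl was lower, and the list summed to 2175 to 3804 in OB, 1386.5 to 2571 in HC, 2354 to 3020.5 in CX and 2959 to 3913 in BS, with overlap between the OB and each of the others and 0 markers at 0 in all samples of a region. The most abundant of them, Snap25 and Syt1, stood at 1170.0 ± 276 and 709 ± 433 (SD, n = 3) in OB and at 1661 and 315 elsewhere. Of 10 olfactory sensory neuron markers, 8 of them tested, 5 were higher in OB, and the sum was 411 to 863 in OB and 133.6 to 393 in the other samples. Between 4 and 7 of these 10 were at 0 in all samples of each other region. The part of these neurons in the Dcx and neuroblast values was not tested.

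**Figure D5:**
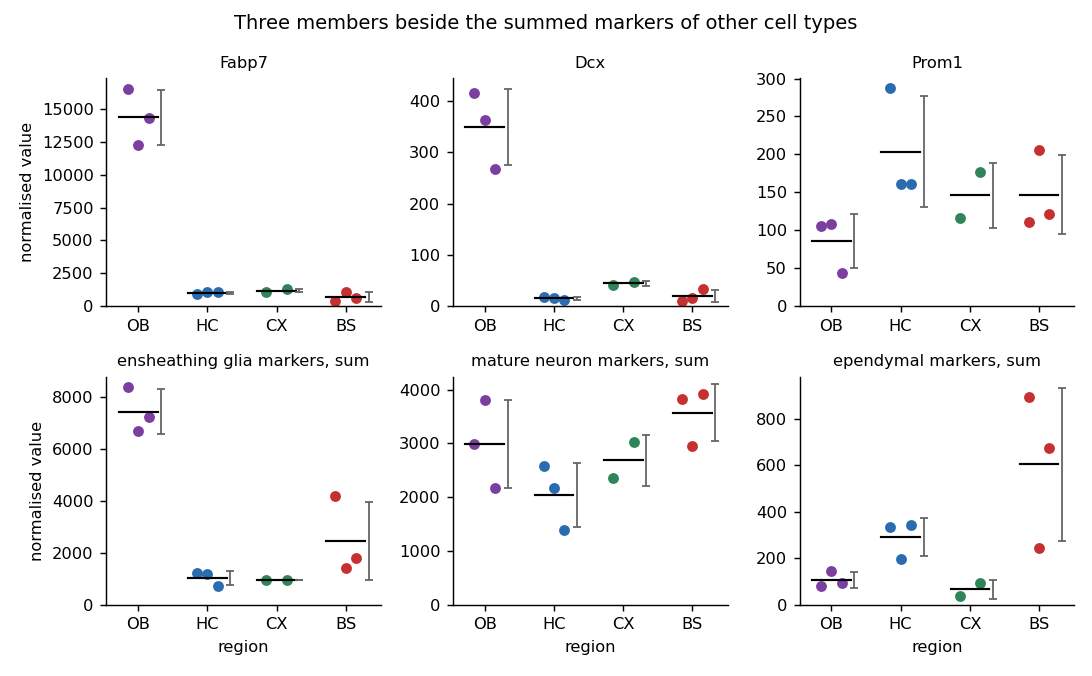
Normalised value of Fabp7, Dcx and Prom1 (top) and the summed normalised value of markers of ensheathing glia (the 8 reported), mature neurons and ependymal cells (bottom) in each sample, by region. Lines are means and bars are 1 SD. The ensheathing glia sum is highest in OB for the 8 reported markers, while with all 9 markers the mean sum is highest in BS. The neuronal sum overlaps between OB and the other regions.

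Of the remaining marker lists, only that of oligodendrocyte precursors held a marker called higher in OB. Of 8 oligodendrocyte markers 6 were lower there and of 10 choroid plexus markers 9 were lower. The contrast called 4.58% of all genes in either direction. Of the choroid plexus list, the thyroid hormone carrier Ttr was at 9.49 ± 6.16 (SD, n = 3) in OB and 88025 as the mean of the other samples. Of 9 oligodendrocyte precursor markers Sox10 was higher and Bcas1 lower. Sox10 is also among the ensheathing glia markers. Endothelial, microglial, ependymal and astrocyte markers gave 0 calls in OB with limma.

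Genes whose pattern over the 11 samples was most like that of each member were ranked by Pearson correlation of log2(value + 1), among tested genes with a mean value of at least 20. The samples come from 4 regions, so these correlations describe regional levels and the spread between samples of a region together. For Nes, Mki67 and Top2a the F test of limma called no difference among regions (adjusted p = 0.7195, 0.774 and 0.737). The same F test called none for Prom1, Egfr and Sox4 (adjusted p = 0.1147, 0.1498 and 0.1978). Mki67 and Top2a also rest on 0 to 34 reads in a sample. Each r is among the highest of 11292 or 11293 candidate genes. The high OB values that in part chose Fabp7 enter its correlations. Any gene high in OB is thereby favoured, so the r values of Fabp7 are a description only. The genes most like Fabp7 were the guidance receptor Robo2 (r = 0.98), Hip1 (r = 0.98) and Stoml3 (r = 0.97). For Dcx they were Zfp385a (r = 0.98), the heparan sulfate enzyme Hs3st3a1 (r = 0.97) and the olfactory marker protein gene Omp (r = 0.95), which was at 157 ± 73.2 (SD, n = 3) in OB and at most 1.53 elsewhere. Sox4 was most like Slc25a15, Rbm46 and Gsto1 (r = 0.93 to 0.96) and Sox11 most like Synpo2, Grik2 and Pag1 (r = 0.94 to 0.95). Egfr was most like Mtor, Tlr3 and Specc1 (r = 0.96 to 0.98), Prom1 like Ets1 and Sap30l (r = 0.95 and 0.85), and Nes like Tbx3, Nudt22 and Pf4 (r = 0.91 to 0.93). Mki67 was most like Cnnm4, Wbp11 and Nfxl1 (r = 0.86 to 0.87) and Top2a most like Slx1b, Hes6 and Bank1 (r = 0.88 to 0.91), all n = 11.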

How the data were processed

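RNA-Seq of FACS-sorted Aldh1l1-eGFP astrocytes was analysed in 11 samples, each placed in a region by its label. Per the authors, reads were mapped to mm10 with STAR 2.5.0a and counted on UCSC transcripts, and the counts were divided by DESeq2 1.20.0 size factors. The deposited unit is this normalised signal. All values were whole multiples of 1 step per sample (100%, within 0.001 reads), so the reads could be recovered. Libraries were made from total RNA with ribosomal depletion, and whether counting used strand is not given in the sources used here.

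Genes were filtered with filterByExpr of edgeR 4.0.16 on recovered reads, leaving 13875. The main test was limma 3.58.1 (R 4.3.3) with a mean-variance trend on log2(value + 1), two-sided, adjusted by Benjamini and Hochberg over all genes tested and called under 0.05. Each region was set against the others pooled, and a model with 1 mean per region gave the other contrasts. Folds on this scale understate changes of low genes. Exact permutation tests used scipy 1.17.1. They had been planned for Fabp7 outside OB too, and were dropped because the OB values that chose it enter every split. Python 3.11.15, numpy 2.4.6, pandas 2.3.3 and matplotlib 3.10.9 were used for tables and plots. The limma fit was tested on simulated counts for some of the contrasts. The edgeR, DESeq2 and permutation tests were not tested in this way. Levels between genes were compared per kilobase of exon (GRCm38, GENCODE), and coordinates are of that build. Intervals and floors cover counting error only.

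Members and lists were chosen with earlier results of these data known. From each list up to 4 called genes with the largest difference were named, or the 2 with the highest mean where none was called; from each marker list the 2 most abundant; and for each member the 3 genes with the highest correlation. Id3, Robo2, Dpysl3, Calb2, Prox1, Sp9, Meis2, Tubb3, Stmn1, Cd24a, Nrep, Stmn2, Neurod2, Gad1, Gad2, Nefl, Sox10, Hopx, Id4, Pax6, Dll1, E2f1 and the genes of the closing paragraph fall outside this rule and were named after their values were seen. Alternatives were edgeR and DESeq2 1.42.0 on recovered reads, a pseudocount of 0.25, no filter, no trend, a replicate block, other groupings, the study's thresholds (p under 0.01, fold over 1.5 and value over 5 in at least 2 replicates) and leaving out each sample. The study's thresholds were applied to the limma fit, whereas the study used DESeq2. Of the genes named by these rules, 2 are not reported here, so the ensheathing glia list is given without 1 of its 9 markers, although the plot of list differences was drawn with all 9.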

Additional observations from a re-analysis of the deposited data

How the results depend on the processing

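Dcx in the OB against the other regions was called under every alternative run, with a log2 difference of 3.82 to 4.15 when single samples were left out and adjusted p between 9.236e-16 and 0.004968 over all alternatives. In that contrast the count of called genes among the 8 was 2 with DESeq2 (Dcx and Sox4) and 3 with the study's thresholds (Dcx, Prom1 and Sox4), and 1 in all fits without a sample. In the HC it was 1 (Dcx) with 1 mean per region, and in the CX 1 (Egfr) with the study's thresholds, against 0 in each main result. Both stayed at 0 without any single sample, where the fit without a CX sample assumes that the lone CX sample varies like the other regions. In the BS it was 0 with edgeR under either TMM or RLE factors and 0 without the trend, 2 with 1 mean per region (Dcx and Sox11), and 0 to 1 without single samples. For OB and HC against CX and BS it was 0 with no filter, 0 with no trend, 0 with pooled pairs of regions and 0 to 1 without single samples. The F test called 1 (Dcx) without the trend and 2 to 3 without single samples, and the exact permutation tests under 0.05 numbered 4 to 5 without single samples, 5 with values scaled to total reads and 4 with TMM factors, where Egfr was lost. The Mki67 difference in the OB, 0.04 in the main result, turned to -0.24 with edgeR under TMM factors, -0.27 under RLE factors and -0.28 with DESeq2, and lay between -0.42 and 0.78 without single samples.

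Replicate numbers were entered as a replicate block as well. Samples of the same number did not deviate together, with correlations between -0.160 and 0.25 over 15 pairs (3 above 0.1), against -0.224 to 0.183 over 30 pairs of different numbers, so the numbers were not read as a pairing. With the block the count for OB and HC against CX and BS was 0 (Dcx 1.35, adjusted p = 0.06511), and no other count among the 8 genes changed.

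Over all genes, calls in OB numbered 636 with limma, 1239 with DESeq2 and 1116 with the study's thresholds on limma p-values. In the same order they numbered 752, 1151 and 1253 in BS, 0, 94 and 178 in HC, and 2, 120 and 384 in CX. The counts by the study's thresholds are thus not the study's own, which came from DESeq2. For OB and HC against CX and BS, calls numbered 431 with limma and 770 with DESeq2. With 1 mean per region the neuroblast list gave 13 calls in OB in place of 8, and the radial glia list 6 in place of 2. The cause of these changes was not tested. Mki67 and Top2a rest on 0 to 34 reads per sample, and 17 of the 25 G2 and M phase genes had too few reads to be tested. The CX had 2 samples.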

Other observations

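In the BS against the other regions, 6 of 20 stem cell and radial glia genes were lower and 0 higher with limma, in a contrast that called 3.42% of all genes lower. These were Nr2e1, Tnc, Hes5, Slc1a3, Id4 and Pax6. Slc1a3, the glutamate transporter GLAST that radial glia and astrocytes share, was at 4470 ± 2257 (SD, n = 3) in BS and 25577 as the mean of the other samples (-2.64, SE 0.34, adjusted p = 0.000479). Hes5, a Notch target, was at 19.5 ± 16.0 (SD, n = 3) against 129 (-3.37, SE 0.64, adjusted p = 0.00730), and Pax6 at 79.1 ± 28.6 (SD, n = 3) against 242 (-1.61, SE 0.27, adjusted p = 0.00337). The BS also held the 2 samples with the lowest sums of the 9 astrocyte markers, 96317.5 to 284061 over its 3 samples, which overlapped those of the OB and HC, and the part of this in these values was not tested.

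Of 9 other fatty acid binding protein genes 2 could be tested. Fabp5 was at 485 ± 81.8 (SD, n = 3) in OB and 461 elsewhere, and Fabp3, a carrier of heart and muscle, was called higher in BS (246 ± 134, SD, n = 3, against 27.1; 3.86, SE 0.89, adjusted p = 0.0222). Of 6 SoxB and SoxC relatives 4 were tested, and Sox21 was lower in BS (-2.10, SE 0.33, adjusted p = 0.00182), while Sox2 and Sox1 were at 597 ± 176 and 553 ± 242 (SD, n = 3) in OB and 635 and 581 elsewhere. Of 10 ligands and relatives of Egfr 6 were tested. The neuregulin receptor Erbb3 was higher in OB at 105 ± 17.4 (SD, n = 3) against 12.7 (log2 3.6, adjusted p = 0.0198), and Erbb4 was higher in BS (1.74, SE 0.40, adjusted p = 0.0213). Erbb3 is also in the list of ensheathing glia markers.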
